A study of Caenorhabditis elegans with 4 samples.

Results

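Peaks of the GFP-tagged zinc-finger protein SEA-2 that lie at promoters of autosomal protein-coding genes reading in 1 direction only are described here. A peak of the list made from all replicates together was taken as a member if its summit fell within a promoter window on an autosome, reaching 1000 bp before and 200 bp past a transcript start of a protein-coding gene, and no such window of a gene on the other strand covered it. This rule, which uses position alone, kept 968 of the 3912 pooled peaks, 24.7%, on 5 autosomes, and all members were 340 bp wide.

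The study was a chromatin immunoprecipitation and sequencing experiment on whole L3 larvae of Caenorhabditis elegans, with 4 biological replicates in 1 group and no treatment or genotype contrast. All replicates were of strain OP193, which has the unc-119(ed3) mutation and the integrated transgene wgIs193. The transgene holds sea-2::TY1 EGFP FLAG C together with an unc-119 copy, so every animal carried tagged sea-2, and no untagged strain is among the samples. The animals were pooled males and females, and a peak is a sum over all tissues of the larva, so binding in few cells and weak binding in many cannot be told apart. Replicates 1 and 2 carry a fragment size range of 150 to 350 bp in their labels, and replicates 3 and 4 a sonication note in its place.

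SEA-2 is known as a signal element on an autosome, one of the proteins whose dose is weighed against that of X-linked signal elements in setting the sex of the embryo through the gene xol-1, and as a regulator of developmental timing that acts on lin-28. Its zinc fingers are of a kind that can contact nucleic acids. Many worm genes stand in tandem or in operons, so a stretch of DNA upstream of a start often belongs to 1 gene only; divergent pairs, in which both neighbours share the stretch, are left out here. Most worm messages also receive a spliced leader, so the annotated start often lies downstream of the site where transcription begins.

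The DNA under the summits of strong members is shown first. Base composition and short words such as GAGAGA set the summits apart from the sequence beside them. Each run is the summit with 50 bases to each side in genome build ce11, fully upstream of the annotated start, free of protein-coding exons, and printed 5′ to 3′ on the strand of the gene. Only summits that lie between protein-coding genes are shown, so members in introns are left out. Capitals mark GAGAGA, or TCTCTC where the word is on the other strand. The first set holds the 4 strongest members that meet these conditions on the autosomes from which sequence is shown here, II to V, and none of them has the word.
Y39E4B.6, chrIII:13070647-13070747, plus strand: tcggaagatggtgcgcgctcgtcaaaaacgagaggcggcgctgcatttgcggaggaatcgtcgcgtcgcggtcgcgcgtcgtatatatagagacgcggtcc
cdc-48.1, chrII:10563507-10563607, minus strand: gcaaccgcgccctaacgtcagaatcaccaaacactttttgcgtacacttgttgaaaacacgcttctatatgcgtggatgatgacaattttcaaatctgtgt
his-37, chrV:9546949-9547049, plus strand: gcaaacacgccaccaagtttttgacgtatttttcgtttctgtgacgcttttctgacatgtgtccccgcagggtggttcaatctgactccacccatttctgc
din-1, chrII:11634311-11634411, minus strand: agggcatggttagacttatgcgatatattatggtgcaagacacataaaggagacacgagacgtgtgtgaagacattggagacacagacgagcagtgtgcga

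The second set holds the 5 strongest further members under the same conditions that have the word. The set was chosen for the word after the values were seen, and shows where in the window it lies and on which strand.
pqn-51, chrV:5049483-5049583, plus strand: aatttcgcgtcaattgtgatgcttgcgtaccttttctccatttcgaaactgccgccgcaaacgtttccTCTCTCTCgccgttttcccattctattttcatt
cox-5A, chrIII:12905170-12905270, plus strand: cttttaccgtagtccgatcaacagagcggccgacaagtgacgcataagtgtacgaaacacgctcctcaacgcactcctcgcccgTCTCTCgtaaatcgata
lin-36, chrIII:8021060-8021160, minus strand: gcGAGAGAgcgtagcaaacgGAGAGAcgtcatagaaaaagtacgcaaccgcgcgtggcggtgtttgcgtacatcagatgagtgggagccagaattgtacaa
unc-16, chrIII:9546157-9546257, plus strand: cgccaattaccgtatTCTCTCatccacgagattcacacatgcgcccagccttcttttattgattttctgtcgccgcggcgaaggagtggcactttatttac
lin-9, chrIII:8904269-8904369, minus strand: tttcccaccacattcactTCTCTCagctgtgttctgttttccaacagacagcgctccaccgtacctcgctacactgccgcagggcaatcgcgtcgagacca
In lin-36 the word stands on the gene strand, and in the other 4 on the opposite strand. Their GC contents run from 44.6% in pqn-51 to 55.4% in lin-9, and that of Y39E4B.6 in the first set is 61.4%. In pqn-51, a gene for a glutamine- and asparagine-rich protein, part of the peak also has a near copy elsewhere in the genome, and how well reads can be placed there was not tested.

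Members were spread over the strength range of the pooled list much as all peaks were. The authors' signal value, whose scale the sources used here do not state, ran from 30.2 to 141 among members, with a median of 35.5 against 35.02 for all pooled peaks. By the authors' q-value 129 members, 13.3%, were under 0.05, against 421 of all pooled peaks, 10.8%, and the median −log10 q-value of members was 0.162. Most members thus did not pass that threshold in the pooled list. The final list, the 312 peaks that the authors kept, held 94 members, 9.71% of them (exact 95% interval 7.92 to 11.8), where 7.98% of all pooled peaks were kept, a value inside that interval. The final list equals the 312 strongest pooled peaks, so its limit falls between a member with signal 57.87 and the next one with 57.83. Autosomal peaks at divergent promoters were kept in 12.5% of 305 cases (8.97 to 16.7), one-direction promoter peaks on X in 13.4% of 320 (9.90 to 17.7), and autosomal peaks in no promoter window in 4.64% of 1402 (3.596 to 5.87). Members stood between divergent promoters and open sequence, and their interval overlaps those of both other promoter classes. Of the 10 strongest pooled peaks 2 were members, of the 50 strongest 16, and of the 100 strongest 29. All intervals cover counting error only, and neighbouring peaks are not independent.

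Windows of non-coding RNA genes covered 182 members, 18.8%, and these members held much of the strong end. Of them 35 were in the final list, 19.2% (13.8 to 25.7), and of the 786 members with no RNA gene window 59 were, 7.51% (5.76 to 9.58). Without members that share an RNA gene window, the kept share was thus below the 7.98% of the pooled list, again a value inside the interval. Most of these windows belonged to genes annotated as ncRNA, with 142 members and 26 in the final list. Those of snoRNA genes, which guide RNA modification, held 32 members and 6 final ones, and those of tRNA genes 9 members and no final one. Which of the genes a peak serves was not tested.

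The class took more of each replicate's strong peaks than its share of the genome. Each replicate's list was reduced to its 3912 strongest peaks, as many as the pooled list holds. Class windows cover 20.2 Mb, 20.2% of the genome. Peaks of the class made up 24.5% of the strongest in replicate 1, 20.9% in replicate 2, 23.6% in replicate 3 and 23.6% in replicate 4. All 4 replicates lay above the genome share, replicate 2 by the least. The mean was 23.1% ± 1.56 (SD, n = 4), an excess of 2.98 ± 1.56 percentage points with an exact two-sided sign-flip permutation p of 0.13, given by 2 of the 16 patterns of signs and the smallest p that 4 replicates allow. Here and below, SDs measure the spread between these 4 samples. The sign-flip p takes its smallest value whenever all 4 differences share a sign, whatever their spread. Read depth is unknown because the files are peak lists without read counts.

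Pooled members were found again unevenly. A member counted as found in a replicate where it shared at least 1 bp with one of that replicate's 3912 strongest peaks. Replicate 1 held 52.6% of members, replicate 2 31.0%, replicate 3 39.05% and replicate 4 30.2% (mean 38.2% ± 10.4, SD, n = 4). In all 4 replicates 64 members were found, 6.61%, against 6.19% of all pooled peaks, a share near that background. A further 110 were found in 3 replicates, 254 in 2, 385 in 1 and 155 in none. The 94 final members were found more widely, 55 of them in 4 replicates, 34 in 3, 4 in 2 and 1 in 1. These replicates also entered the pooled list, so being found again is not independent of a member's signal.

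Members were found again more often than autosomal peaks outside protein-coding windows in all 4 replicates, by 6.14 ± 1.56 percentage points (SD, n = 4; exact sign-flip p = 0.13, 0.188 after Benjamini-Hochberg adjustment over 3 comparisons). They were found less often than one-direction promoter peaks on X in all 4, with a mean difference of -4.77 ± 3.00 points (exact p = 0.13, adjusted 0.188). Against autosomal divergent promoter peaks the differences were -7.75, 1.81, -6.52 and -1.31 points in replicates 1 to 4, with a mean of -3.44 ± 4.48 (exact p = 0.375, adjusted 0.375). That last difference was within the spread between replicates.

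**Figure D1:**
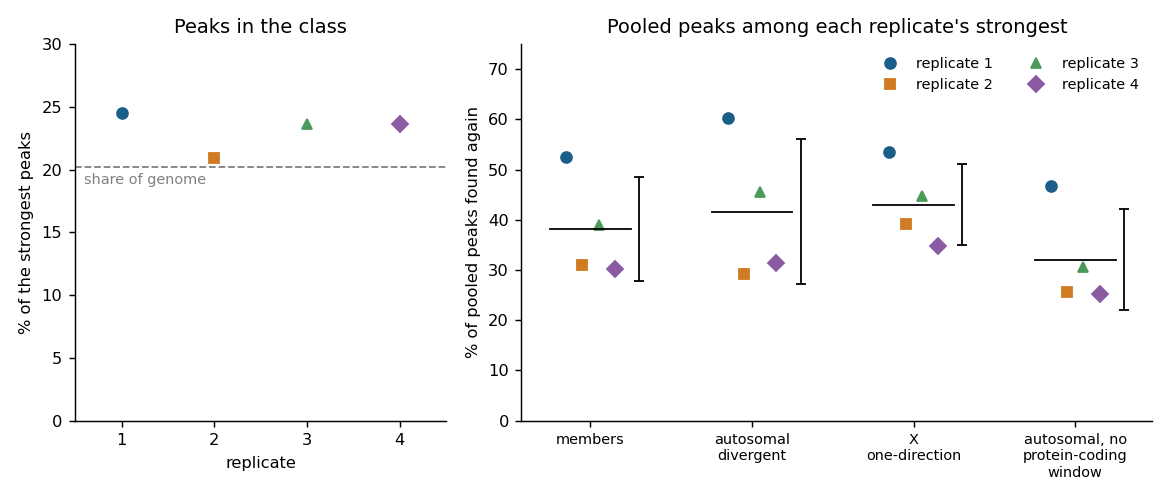
Left, percent of each replicate's 3912 strongest peaks that fall in the class (points, 1 per replicate), with the share of the genome in class windows as a dashed line; right, percent of pooled peaks of 4 classes found again in each replicate, with the mean (line) and SD (bar, n = 4). All 4 points on the left lie above the line, and replicate 1 is highest in every class on the right.

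Summits were concentrated just upstream of the start. The median position was -285.5 bp (quartiles -593 and -105), where that of class sequence was -374 bp. Upstream lay 825 members, 85.2%, near the 81.7% of class sequence that lies there. From 400 bp upstream to the start there were 458 members, 47.3%, where 33.9% of class sequence lies that close. In replicates 1 to 4 this stretch held 45.4%, 36.4%, 46.5% and 41.0% of class peaks. All 4 replicates lay above the share of sequence, by 8.40 ± 4.65 points on average (SD, n = 4; exact sign-flip p = 0.13, 0.25 after adjustment over 3 measures). The 3 steps of 200 bp beyond held 13.02%, 12.6% and 12.3% of members, a flat profile. The first 200 bp of the transcript held 143 members, of which 8 were final, and the 56 members from 100 to 200 bp past the start included no final member. The median of the final members, -280 bp, and that of the weaker ones, -285.5 bp, differed little.

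**Figure D2:**
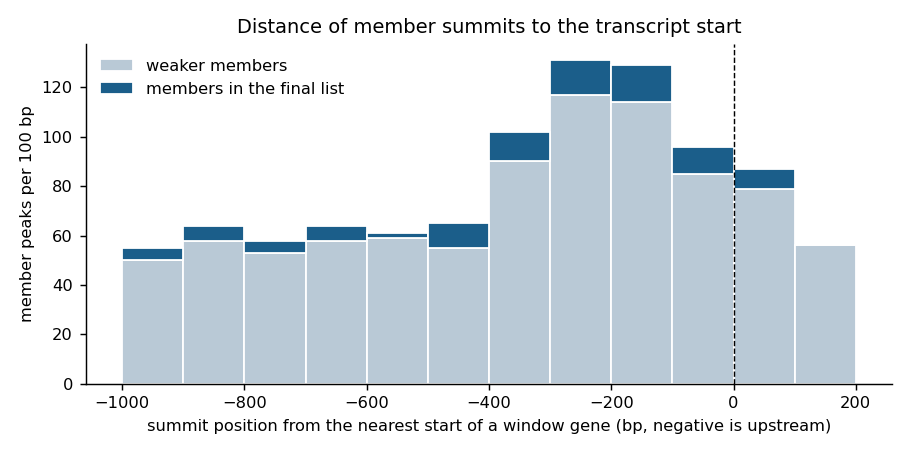
Member peaks per 100 bp (y axis) by position of the summit relative to the nearest start of a gene of its window (x axis, bp), final members stacked in dark on weaker ones. Counts are highest from 400 bp upstream to the start, and the last 100 bp hold no final member.

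The window edges cut through a continuous range of positions. Just inside the upstream edge lay the member of hmp-1, the alpha-catenin of cell junctions, at -1000 bp with signal 41.97, and just outside a peak of grh-1, a Grainyhead transcription factor, at -1001 bp with signal 31.2. Just inside the downstream edge lay the member of K02E11.5 at 199 bp with signal 32.1, and just outside a peak of ipgm-1, a phosphoglycerate mutase, at 207 bp with signal 40.3.

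Summits in coding exons were few, and 1 of them was among the final members. Between genes lay 542 summits, 56.0%, where 44.3% of class sequence is intergenic, and 137, 14.2%, were in coding exons, which make up 22.9% of it. Introns held 198 summits and other exon parts 91. Over replicates 1 to 4 coding exons held 13.05%, 24.4%, 10.4% and 19.1% of class peaks (mean 16.7% ± 6.26, SD, n = 4; exact sign-flip p against the sequence share 0.25, adjusted 0.25). Replicate 2 was above the sequence share and the other 3 were below it, so the pooled difference is not shared by every replicate. Of the members in coding exons 1 of 137 was in the final list, 0.730% (0.0185 to 4.00), against 11.2% of the other 831 (9.13 to 13.5). Their recovery minus that of the others was -18.7, -14.8, -23.4 and -16.4 points in replicates 1 to 4, from 40.8% ± 10.6 elsewhere to 22.4% ± 9.45 in coding exons (SD, n = 4; exact p = 0.13, 0.333 after adjustment over 8 subset comparisons).

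The start that placed a peak in the class was not always the gene's first. For 763 members, 78.8%, it was the first annotated start, and for 205 an internal one. Internal-start members were in the final list in 9.76% of cases (6.06 to 14.7) and first-start members in 9.70% (7.69 to 12.02), with a difference in recovery of 1.36 ± 6.37 points (SD, n = 4; exact p = 0.625, adjusted 0.714). Among the 20 strongest members, 6 were at internal starts, and among the 94 final members 20 were. The summit at nurf-1, the large subunit of the NURF chromatin remodeller, lay 14663 bp past the first start of the gene, and that at zfp-1, the worm AF10 homologue, 10612 bp past it.

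At first starts, 452 of 763 members, 59.2%, had an upstream neighbour on the same strand, against 54.4% of autosomal protein-coding genes. The median gap to that neighbour was 889 bp for same-strand and 3143 bp for opposite-strand neighbours. The class rule leaves out summits in windows of both strands, while the 54.4% counts all genes, close divergent pairs included. Neither the same-strand share nor the longer opposite-strand gap can thus be told apart from the rule. Members with a same-strand neighbour were final in 7.74% of cases (5.45 to 10.6) and the others in 12.5% (9.07 to 16.7). The difference in recovery, -5.35 ± 3.78 points, had the opposite sign in replicate 1 (SD, n = 4; exact p = 0.25, adjusted 0.4).

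The autosomes contributed unequally. Chromosome I gave 250 members, 25.8%, from 16.7% of the class sequence, and chromosome III 198, 20.5%, from 14.8%. Chromosome II gave 208, close to its share of sequence. Chromosome IV gave 146, 15.1%, from 20.4%, and chromosome V 166, 17.1%, from 28.4%, a density of 28.9 members per Mb against 73.9 on chromosome I. The middle 50% of the length of each chromosome, where most conserved genes lie, held 66.9% of members and 54.0% of class sequence, and in replicates 66.0% ± 1.58 of class peaks (SD, n = 4). The plus strand held 52.7% of members and 50.7% of class sequence.

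Summits were richer in G and C than their surroundings. Member summits with 50 bases to each side had 41.5% GC, windows of the same length centred 250 bp to either side 36.2%, and all class sequence 35.2%. The 94 final members reached 50.03% against 37.9% beside them, and the weaker members 40.6% against 36.0%. Class peaks of replicates 1 to 4 differed from their flanks by 3.23, 6.53, 2.55 and 2.30 points (mean 3.65 ± 1.96, SD, n = 4; exact sign-flip p = 0.13). All 4 differences were positive, and replicate 2 gave the largest. Base composition can change how readily fragments are amplified and sequenced, and its part in these values was not tested.

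**Figure D3:**
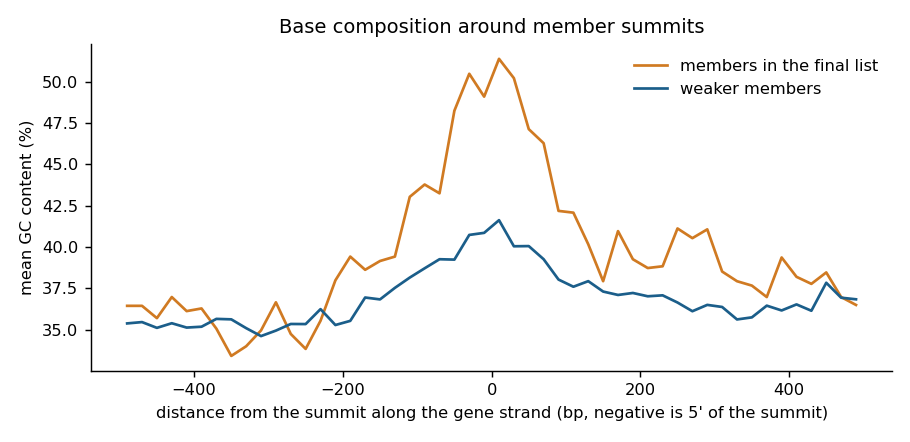
Mean GC content in steps of 20 bp (y axis, percent) by distance from the member summit along the gene strand (x axis, bp), for final and weaker members. Both curves peak at the summit, and that of the final members is the higher there.

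The word GAGAGA, searched on both strands, was found at 20.5% of member summits, in 8.63% of flanking windows and in 6.01% of tiles of that length over the class sequence. It is the core of the GA repeats known in many animal promoters. Final members had it in 40.4% of cases and their flanks in 9.04%, and weaker members in 18.3%. In replicates 1 to 4 the share at summits exceeded that in flanks by 6.68, 10.2, 8.33 and 2.60 points (mean 6.94 ± 3.23, SD, n = 4; exact sign-flip p = 0.13, 0.156 after adjustment over 5 words). Intergenic members had the word in 24.4% of cases and coding-exon members in 3.65%. It is not particular to the class, since it was present at 13.1% of autosomal divergent summits, 22.3% of those at RNA gene promoters, 18.2% of those in no promoter window and 20.9% of X one-direction summits. These shares were not tested against each other.

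Members with the word were stronger and more often found again. Their median signal was 38.9 against 35.1 without it, and 38 of 198 were final, 19.2% (13.95 to 25.4), against 56 of 770, 7.27% (5.54 to 9.34). Recovery was higher by 8.82, 18.8, 13.8 and 12.9 points in replicates 1 to 4, at 49.0% ± 8.09 with the word and 35.4% ± 11.1 without (SD, n = 4; exact p = 0.13, adjusted 0.333). Members in RNA gene windows were likewise found more often in all 4 replicates, by 7.60 ± 3.01 points (exact p = 0.13, adjusted 0.333). The 64 members found in 4 replicates had the word in 35.9% of cases, and the 155 found in none in 10.3%.

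The word's strand among pooled members was near that of the class sequence as a whole. Of the members with it on 1 strand, 64 had GAGAGA on the gene strand and 118 on the other, so that 35.2% (28.2 to 42.6) had it on the gene strand. Tiles of the class sequence gave 36.7%. Replicates 1 to 4 gave 34.1%, 30.4%, 26.9% and 37.6% (mean 32.3% ± 4.63, SD, n = 4). The interval of replicate 3, 19.9 to 34.9, lies below the share of the tiles. Final members gave 25.7% (12.5 to 43.3), an interval that includes it. The orientation in pooled members is thus near that of class sequence, and the lin-36 site printed above is in the less frequent one.

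The other words searched on both strands differed in direction. TTTTTT was at 25.8% of summits and 38.9% of flanks, and at 8.51% of final summits, with a mean difference over replicates of -10.98 ± 6.62 points (SD, n = 4; exact p = 0.13, adjusted 0.156). TATAAA, the TATA box core, was at 8.37% of summits and 11.4% of flanks, and CCGCCC, a GC box core, at 4.24% and 2.27%. TGATAA, the core bound by GATA factors of the intestine, was at 7.33% and 9.56%, and at none of the 94 final summits (exact p over replicates 0.625, adjusted 0.625). T-rich words are fewer where GC is high, so these counts and the GC content are not independent. The GAGAGA counts were likewise not adjusted for GC content.

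The strongest members were shared by the replicates. Signal values of different lists are not on a stated common scale, so ranks within each list are given. The member of pbrm-1, the polybromo subunit of a SWI/SNF remodeller, had signal 141, lay in an intron 833 bp upstream of an internal start, and ranked 34, 11, 5 and 24 in replicates 1 to 4. The member of Y39E4B.6, 59 bp upstream of the start, had signal 140.5 and ranked 30, 18, 7 and 43. Both were thus among the 50 strongest peaks of every replicate. The member of coq-3, a methyltransferase of ubiquinone synthesis, ranked 6, 96, 23 and 39, and that of nurf-1 ranked 52, 14, 15 and 94. The member 106 bp upstream of his-37, a histone gene, ranked 46, 230, 31 and 42. These 3 also stood high in all 4 lists, with replicate 2 lowest for coq-3 and his-37.

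Of the 20 strongest members, 17 were found in 4 of 4 replicates, 12 were intergenic, 6 intronic and none in a coding exon. GAGAGA was within 50 bp of the summit in 8 of them, and 8 shared an RNA gene window. Of the 94 final members, which include these 20, 55 were found in 4 of 4 replicates. Between genes lay 66 of the 94, in introns 20 and in a coding exon 1. GAGAGA was at 38 of the 94, and 35 shared an RNA gene window. The counts of the 20 and the 94 were not tested against each other. The gene T24B8.3 had 2 of the 20 strongest members, with signals 104.2 and 103.7, each in the window of an ncRNA gene. That of eat-16, a regulator of G protein signalling, lay in an intron of its neighbour ocrl-1 and ranked 95, 4, 260 and 75. The rest included otub-2, a deubiquitinase gene, din-1, a corepressor partner of the nuclear receptor DAF-12, cox-5A, a cytochrome c oxidase subunit, chmp-7, an ESCRT component, and the genes gldi-8, tos-1, pir-2 and F08G2.5. Among the 312 strongest peaks of every replicate were 10 of the 968 members. They were at pbrm-1, Y39E4B.6, coq-3, nurf-1, his-37, gldi-8, tos-1, eat-16, T24B8.3 and tub-2. The count over all pooled peaks is not given here, so this number has no background beside it.

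Some strong members ranked very differently between replicates. The member of cdc-48.1, the p97 ATPase, with signal 119.8, ranked 4, 53 and 676 in replicates 1, 3 and 4 and had no overlapping peak in replicate 2. The member of fic-1, an AMP-transferase, ranked 12 and 4 in replicates 2 and 4 but 4543 and 1932 in replicates 1 and 3. That of pqn-51 ranked 22, 26 and 36 in replicates 1 to 3 and 7365 in replicate 4. Among final members the widest spreads after cdc-48.1 were at Y54G11A.2, which had no peak in replicate 3 and ranked 51 in replicate 2, at hrpf-1, absent from replicate 3, and at unc-76 and drap-1, both absent from replicate 4. No single replicate accounted for all of these. Final members found in fewer than 3 replicates were those of cox-5B, in replicate 1 alone, and of rpl-35, rgef-1, vhp-1 and Y54G11A.2, in 2 replicates each. The gene vhp-1 is named here after its value was seen.

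**Figure D4:**
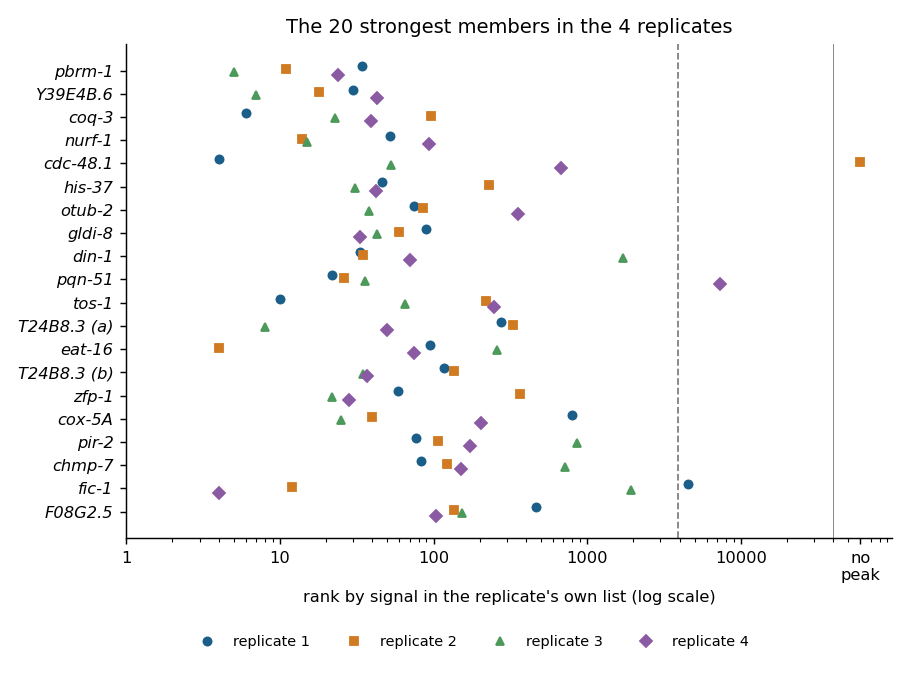
Rank of the 20 strongest members (y axis, strongest at the top) in each replicate's own list (x axis, log scale); the dashed line marks rank 3912, and points at the right edge have no overlapping peak. Letters a and b separate the 2 members of T24B8.3; 17 of the 20 have all 4 points left of the dashed line.

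The members' windows belonged to 920 of 17242 autosomal protein-coding genes, 5.34%, and those of final members to 98, 0.568%. In replicates 1 to 4 the class peaks gave 922, 784, 899 and 880 genes. Of the 898 genes nearest to a member, 63 had at least 2 members and none more than 3. Gene lists by function are compared with these shares as counts, without a test of the list.

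Genes of chromatin remodelling and modification had members in 14 of 80 cases, 17.5% (9.91 to 27.6), and final members in 7, 8.75%. Class peaks of replicates 1 to 4 fell at 9, 11, 10 and 10 genes of this list. Beside pbrm-1 and nurf-1 it held lin-9, a MuvB subunit that represses cell cycle genes, with signal 82.6 and ranks 62, 582, 488 and 950, and chd-7, a chromodomain helicase, with signal 76.6 and ranks 179, 1035, 56 and 644. Both members were found in all 4 replicates. Histone genes had members in 3 of 76 cases, 3.95% (0.822 to 11.1), an interval that includes 5.34%. They were at his-37, the H3.3 gene his-72 and the linker histone gene hil-7, all in the final list.

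The list of heterochronic genes, which time larval development, had members at 5 of 13 genes, 38.5% (13.9 to 68.4), and 1 was final. That one was lin-28, the RNA-binding regulator of early larval fates, with signal 70.0 at 51 bp past the start and ranks 206, 213, 882 and 839. It was found in all 4 replicates. The members of lin-66 (signal 39.4) and blmp-1 (37.7), a Blimp-1 homologue, were found in 3 replicates and 1 replicate. The list also contains sea-2 itself, which had 2 members, the stronger at -797 bp with signal 43.0 and found in replicate 3 alone. The 2 final peaks inside the sea-2 gene lay in no promoter window. All animals carried sea-2 on the transgene, and reads from it and from the gene itself cannot be told apart.

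Sex determination and dosage compensation genes had members in 5 of 29 cases, 17.2% (5.85 to 35.8), none of them final. The 5 genes include sea-2 itself, already counted among the heterochronic genes and carried by all animals on the transgene. The strongest was at mog-3, named for masculinization of the germline, with signal 56.5 and ranks 3056, 150, 8379 and 1291, followed by dpy-27, the condensin subunit specific to dosage compensation, with signal 45.4 and ranks 6992, 6110, 820 and 206. Neither stood high in every replicate.

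Several groups of genes of general cell function had members more often than the 5.34% of all genes, and others were near that share. Ribosomal protein genes had members in 11 of 80 cases, 13.8% (7.07 to 23.3), with 3 final ones at rpl-3, rpl-35 and rps-28. Class peaks of replicates 1 to 4 fell at 11, 6, 8 and 5 of these genes. The rpl-3 member had signal 84.7 and ranked 15, 203, 364 and 5457. Proteasome genes had members in 6 of 33 cases, 18.2% (6.98 to 35.5), the strongest at the base ATPase gene rpt-6 with signal 42.8, and none final. In replicates 1 to 4 class peaks fell at 4, 3, 2 and 4 proteasome genes. The polyubiquitin gene ubq-1, with signal 89.7 and ranks 1149, 61, 76 and 18, led 7 of 45 ubiquitin conjugation genes, and tbb-2, a beta-tubulin gene with signal 79.2 and ranks 39, 5468, 175 and 83, led 8 of 53 cytoskeletal genes. Oxidative phosphorylation genes had 7 of 45, with cox-5A and cox-5B final. Splicing genes had 1 of 45, 2.22% (0.0562 to 11.8), and mitochondrial ribosomal protein genes 3 of 70, 4.29% (0.893 to 12.02), both with intervals that include 5.34%. Chaperone genes had 3 of 55, 5.45%, and genes of RNA polymerase and general transcription 4 of 70, 5.71%. Nuclear pore and transport genes had 2 of 40, 5.0%, and vacuolar ATPase genes 1 of 17, 5.88%.

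Homeobox genes had members in 10 of 67 cases, 14.9% (7.40 to 25.7), led by ceh-88 with signal 58.7 and ranks 516, 1180 and 600 in replicates 1, 3 and 4 and no peak in replicate 2. Class peaks of replicates 1 to 4 fell at only 5, 4, 3 and 7 homeobox genes, all below the pooled count. Other transcription factor genes had 9 of 63, led by zip-2 with signal 73.7 and ranks 110, 1804, 181 and 4887. In replicates 1 to 4 class peaks fell at 5, 4, 10 and 9 genes of that list. Nuclear hormone receptor genes, a greatly expanded worm family, had 6 of 246, 2.44% (0.900 to 5.23), with the conserved nhr-49 (signal 45.9) and nhr-23 (45.7) first. The replicates each had 9 to 11 genes of this list, more than the pooled list.

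Members were at some marker genes of several tissues. Neuronal genes had members in 10 of 93 cases, 10.8% (5.28 to 18.9), led by rgef-1 with signal 71.0, which was final, and egl-21, a neuropeptide-processing carboxypeptidase, with signal 56.2. Of the 10 genes, 1 is unc-119 (signal 30.9), and all animals carried an unc-119 copy on the transgene. Hypodermis and seam genes had 5 of 30, 16.7% (5.64 to 34.7), germline genes 5 of 60, 8.33% (2.76 to 18.4), and intestine genes 1 of 46, 2.17% (0.0550 to 11.5). Collagen and cuticle genes had 8 of 191, 4.19% (1.83 to 8.09). The intervals of the neuronal, germline, intestine and collagen lists include the 5.34% of all autosomal protein-coding genes. That of the hypodermis and seam list lies just above it, with no final member. Class peaks of replicates 1 to 4 fell at 4, 1, 4 and 3 genes of the hypodermis and seam list, all below the pooled count. Because whole larvae were used, no tissue can be assigned to a peak.

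Large families of the chromosome arms had few members. Chemoreceptor genes had 15 of 1276, 1.18% (0.659 to 1.93), with none final and the strongest at sre-23 (signal 57.6). F-box and BTB genes had 5 of 395, 1.27% (0.412 to 2.93), and C-type lectin genes 3 of 237, 1.27% (0.262 to 3.65). In replicates 1 to 4 class peaks fell at 23, 20, 40 and 41 chemoreceptor genes, all above the pooled count. The intervals of these 3 lists lie below 5.34%.

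**Figure D5:**
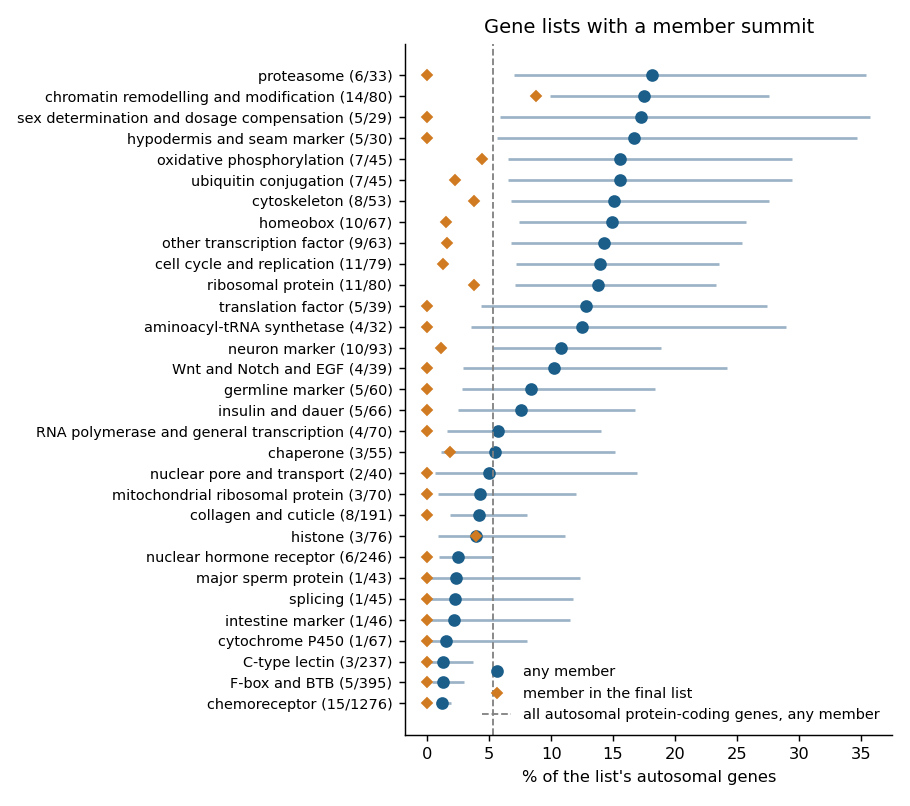
Percent of autosomal genes of each list with a member summit in their window (circles, with exact 95% intervals) and with a final member (diamonds); numbers in brackets are genes with a member and genes in the list, and the dashed line is the 5.34% of all autosomal protein-coding genes. Lists with at least 25 genes are shown; chromatin genes have the highest share of final members, 8.75%.

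Repeated sequence touched few strong members. A second place in the genome with at least 50 bp at 90% identity or more was found for 70 members, 7.23%, and for 2 of the 94 final ones. Another pooled summit lay within 1000 bp of 12.7% of members, and at most 5 members fell within 10000 bp.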

How the data were processed

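Peak lists of 4 replicates, the list pooled over them and the final list were used in build ce11, whose chromosome lengths equal those of the reference WBcel235; the ce10 lists were not used. Per the file headers and labels, the authors deposited narrowPeak lists: column 7 is the authors' signal value, column 9 the deposited −log10 q-value, and column 10 the deposited summit offset (a position count, not a measurement). The sources used here do not give the aligner, peak caller, threshold or signal scale; these lists are named as holding background as well as peaks, and most pooled peaks have q-values above 0.05. Control reads were not analysed here.

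Summits were classed with Ensembl release 115 transcript starts. Lists were ordered by signal (ties by q-value, then position), and each replicate's 3912 strongest peaks were used. Words were searched in 101 bp windows; second copies were found with blastn 2.17.0. Tests were exact two-sided sign-flip permutation tests over 4 replicates (smallest p 0.125) with Benjamini-Hochberg adjustment, in Python 3.11.15 with numpy 2.4.6, pandas 2.3.3 and scipy 1.17.1. Functions were tested on simulated data.

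Genes named are the nearest genes of the 20 strongest members, up to 4 of each gene list with at least 2 such genes, the 5 final members with the widest rank spread, those at the window edges, and those singled out by a count or shown sequence, which were chosen after their values were seen. The gene unc-119 is named because the transgene holds a copy. The members, lists and words were chosen with earlier results of these data known, patterns of 2 lists were corrected after the files were read, and the comparisons of subsets and of places in the gene were added later. Alternatives changed the windows, the number of peaks, the overlap, the flanks and the replicates.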

Additional observations from a re-analysis of the deposited data

Results flagged for a closer look

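Of 47 sets of 4 replicate values examined for 1 replicate far from the other 3, 4 stood out, where chance gives about 1 in 20. The share of class peaks on the plus strand was 54.2% in replicate 2, above the others. Among class peaks with TATAAA on 1 strand, 46.5% had it on the gene strand in replicate 2, below the others. In replicate 1, class peaks fell at 12 cell cycle and replication genes, against 5, 4 and 5 in the other three. In replicate 1 they fell at 4 heterochronic genes and in the other three at 5.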

How the results depend on the processing

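Of 49 alternatives, 45 were classed as leaving the result the same and 4 as moving it. None turned the sign of the mean of a tested difference. Results classed as the same could still differ much in size, as values below show. With windows reaching 500 and 2000 bp upstream, for instance, 691 and 1213 genes in place of 920 had a member. Without members in an RNA gene window the final share was 7.51% in place of 9.71%. This takes it from above to below the 7.98% of all pooled peaks, which still include those in RNA gene windows. With a window reaching 2000 bp upstream the median position was -658.5 bp in place of -285.5. With only the 312 strongest peaks per replicate, 36 members in place of 174 were found in at least 3 replicates, fewer peaks being compared by construction. With the final list alone, 98 genes in place of 920 had a member. The excess of the class over its genome share was 1.28 points for whole lists and 1.10 with the longer window. Each had an exact sign-flip p of 0.25, above the smallest p, so not all 4 replicates lay above the genome share there. For the 312 strongest peaks the excess was 8.28 points, and with 1 replicate left out it was 2.53 to 3.73. The same ranges were 2.69 to 4.10 points for GC, 5.87 to 8.39 for GAGAGA and -5.19 to -2.01 for recovery against divergent promoters. The GAGAGA difference was 3.76 points with 25 bp on each side. With replicates 1 and 2 alone, which carry the size range note, and 3 and 4 alone, which carry the sonication note, the class excess was 2.52 and 3.44 points, the GC difference 4.88 and 2.42, and the GAGAGA difference 8.42 and 5.47. No test with 4 replicates can pass 0.05, so no call rests on a p-value. Peak lists hold no read depth, so how far it limits weaker members is unknown. No paired analysis was possible because there is 1 group and no second one to pair it with; the differences tested were taken within each replicate.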
